A study of Rattus norvegicus with 18 samples.

Results

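The genes described here make up part of the machinery that processes messenger RNA and translates it: 67 rat genes for splicing factors, RNA helicases, RNA-binding proteins, decay factors, ribosomal proteins and translation initiation factors, with a few kinases that bear the same name stems. They were chosen by symbol alone, as every gene whose name begins with Eif, Eef, Rpl, Rps, Mrpl, Mrps, Ddx, Dhx, Hnrnp, Sf3, Srsf, Rbm, Prpf, Snrp, Celf, Elavl, Pum (followed by a digit), Cnot, Exosc, Cpsf, Cstf, Polr or Larp, in a gene list of the study that pairs Ensembl identifiers with symbols. The copy of the list used here held 1999 of its 3225 genes. It had been restricted to genes with intronic reads and without overlapping neighbours, and the 67 hold only 3 cytosolic ribosomal protein genes. The count tables listed 26172 genes, of which 17930 had reads in at least 3 of 6 libraries at the deepest sequencing and were tested, including all 67 members.

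As background, a primary transcript is spliced by the spliceosome, whose choice of exons is guided by SR proteins and hnRNPs, and it is then cleaved and polyadenylated at its 3′ end. The mature message is bound by further proteins that set its stability and location, is shortened and degraded by the CCR4-NOT deadenylase and the exosome, and is translated by ribosomes under the control of initiation factors and their kinases. In sensory neurons, local translation along the axon and kinases that sense stress or growth signals are known to take part in the response to nerve injury.

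Poly(A)-enriched RNA of the fifth lumbar (L5) dorsal root ganglion, which holds the cell bodies of sensory neurons together with glia, was sequenced from male Wistar rats. The spinal nerve transection group (SNT, 3 libraries) had the L5 spinal nerve cut 7 days before tissue was taken, and the naive group (3 libraries) had no surgery, so that the transection and the surgery around it cannot be told apart. Ganglia of several rats were pooled for each library, and the ages are not given in the sources used here. Each library was sequenced to a nominal 50 M reads (M, megareads) and, more shallowly, to 25 M and 17 M, which are repeat runs of the same library and not further animals. The 50 M runs had 18588873 to 19031166 reads on genes per naive library and fewer, 15000789 to 17480115, per SNT library. Over both groups the 25 M runs had 8319112 to 9951906 and the 17 M runs 4968448 to 6154543. Values below are normalized counts (reads divided by a size factor of the library) of the 50 M runs unless another depth is named. Naive replicates 1 to 3 and SNT replicates 1 to 3 are given in that order throughout.

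After SNT, 6 of 7 SR splicing factor genes and 6 of 10 spliceosome genes rose by small steps. Of 4 mitochondrial ribosomal protein genes 2 fell, and of 6 kinase genes 2 fell and 1 rose. Of the 67 members, 37 differed between SNT and naive at an adjusted p below 0.1 (limma on log2 of the normalized count + 1, Benjamini-Hochberg over all tested genes), 28 of them higher and 9 lower in SNT. Across all genes tested, 58.5% were called, 29.2% higher and 29.4% lower; among the 1999 genes with a symbol, 71.3% were called, 35.2% higher and 36.1% lower. The members' own share was 55.2%, and 75.7% of their calls were increases, against 49.8% of the calls among all genes and 49.4% among genes with a symbol. The median log2 fold change of the members was 0.13 and that of all genes was 0.01.

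The members' changes were small. Their log2 fold changes lay between -0.45 (Rps6ka3) and 0.93 (Cpsf4), and none passed 1 in size (3 did with libraries scaled to equal totals), whereas 23.2% of all tested genes and 13.2% of the genes with a symbol did. The 3 SNT values lay wholly above or wholly below the 3 naive values for 43 of the 67 members (64.2%). The share was 62.1% among all genes and 75.7% among genes with a symbol. When libraries were scaled to equal totals instead of size factors, which moved the median of all genes from 0.01 to 0.16, 44 members were called higher and 5 lower, beside 36.8% and 22.1% of all genes (89.8% of the members' calls were then increases, against 62.5% of the calls among all genes). All 28 increases were kept under that scaling, but it raised the log2 fold changes, so this is no separate support for them. Of the 9 decreases, which it could weaken, 5 were kept: Rps6ka3, Dhx36, Rbm18, Mrps31 and Rps6kb1. These 5 lay between -0.29 and -0.20 with equal totals, and between -0.45 and -0.37 with size factors.

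**Figure D1:**
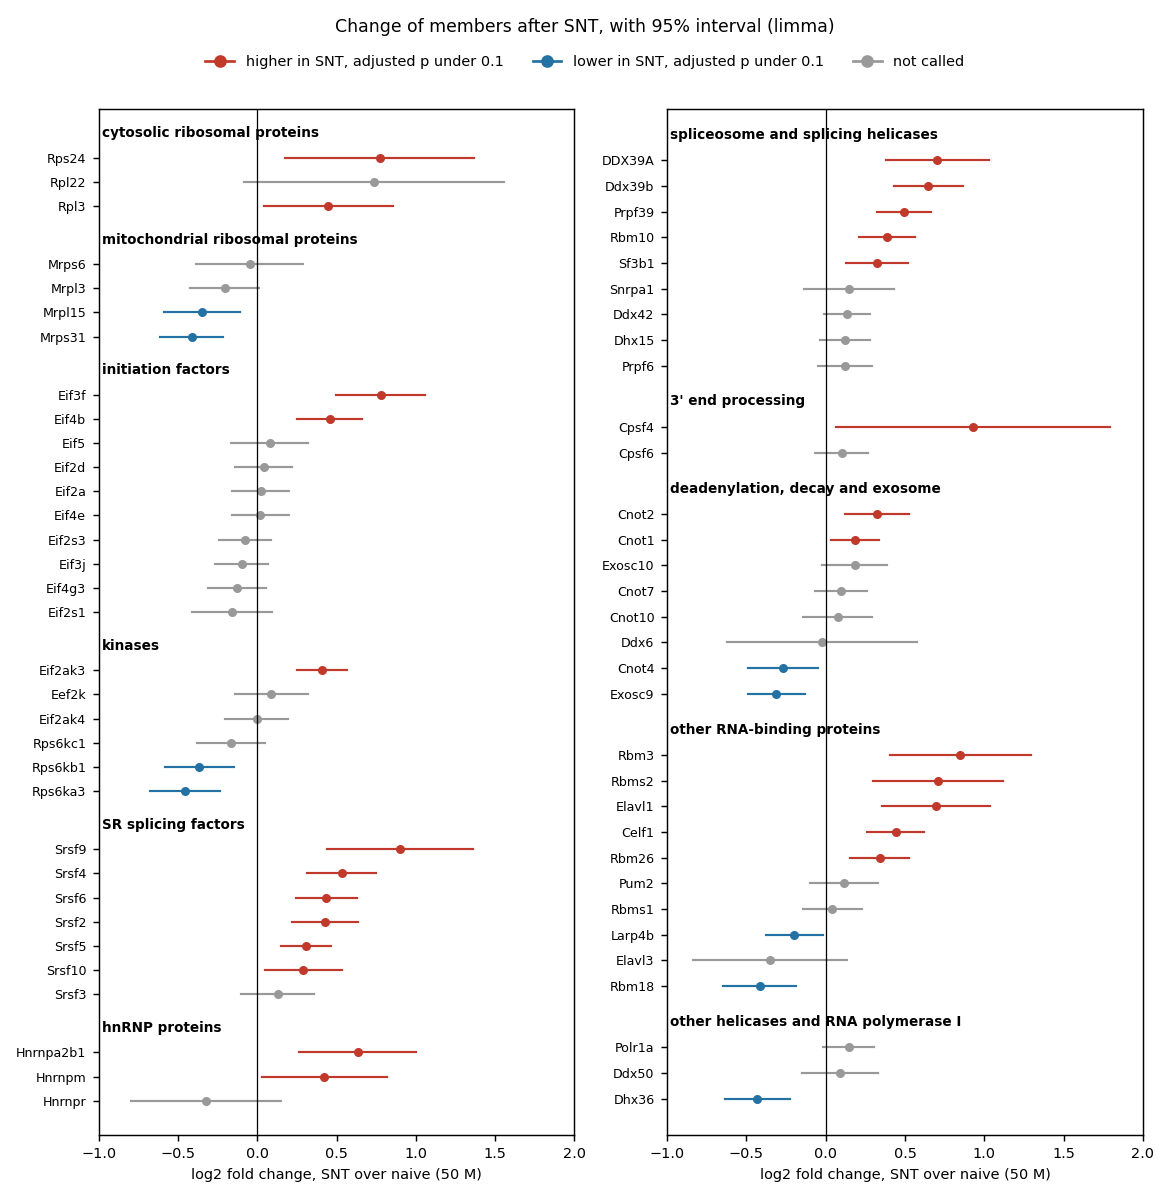
The log2 fold change of SNT over naive at 50 M (x axis) of 65 of the members, in functional groups, with the 95% interval of the limma fit; red and blue points were called higher and lower, grey points were not called. The SR splicing factors and spliceosome genes lie to the right of 0, and every member plotted lies between -0.45 and 0.93.

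SR splicing factors bind exon sequences and recruit the spliceosome to neighbouring splice sites. Of the 7 measured, 6 rose after SNT and Srsf3 did not pass the test, and the group's median log2 fold change was 0.43. The share called higher was 85.7%, beside 29.2% of all genes and 35.2% of genes with a symbol. Srsf9 (ENSRNOG00000001163) rose the most among members called at all 3 depths. Its normalized counts were 233, 175 and 218 in naive replicates 1 to 3 and 302, 481 and 398 in SNT replicates 1 to 3. The groups did not overlap, although SNT replicate 1 lay much nearer to the naive libraries than the other SNT libraries did. The log2 fold change was 0.90 ± 0.19 (SE), adjusted p = 0.00996.

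Srsf4 had counts of 712, 665 and 699 in naive and 900, 1089 and 1023 in SNT, a rise of 0.53 ± 0.09 on the log2 scale (adjusted p = 0.0054 by limma). Srsf2, which acts in constitutive and alternative splicing, had 2984, 2703 and 3125 in naive and 3670, 4141 and 4034 in SNT. Srsf6 had 2224, 2109 and 2399 in naive and 2846, 3182 and 3069 in SNT. In each of these 3 genes the lowest SNT library lay above the highest naive library, and the log2 fold changes of Srsf2 and Srsf6 were 0.43 and 0.43. Srsf5 rose by a smaller step of 0.31, with 1668, 1597 and 1700 in naive and 2010, 1999 and 2136 in SNT. Srsf10, which can repress splicing, had 314, 322 and 327 in naive and 369, 443 and 369 in SNT. Its rise of 0.29 was called at 50 M (adjusted p = 0.0521 by limma) and at neither lower depth, and it was lost on leaving out SNT replicate 2 or any naive library (adjusted p 0.105 to 0.151). Srsf3, with 832, 751 and 844 in naive and 819, 986 and 853 in SNT, overlapped between the groups, and the interval of its log2 fold change was -0.10 to 0.36.

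Promoter sequence was read for 6 of these SR genes and for 4 members that fell. The RefSeq promoter table (rat assembly GRCr8, 1 start per entry) held a single entry for 56 of the 67 members, more than 1 for 3 and none for 8. Shown are the 100 bases just upstream of the start, 5′ to 3′ on the gene's strand, with matches to 5 motifs in capitals on either strand: the CCAAT box (CCAAT), the GC box bound by Sp1 (GGGCGG), an ETS site (CCGGAAG), an E box (CACGTG) and a cyclic AMP response element (TGACGTCA). Each motif was searched separately and matches could overlap.
Srsf2 (chr10:102554142-102554241, minus strand): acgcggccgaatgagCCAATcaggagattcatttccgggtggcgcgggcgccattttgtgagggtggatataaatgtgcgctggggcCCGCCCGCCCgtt
Srsf3 (chr20:7093485-7093584, plus strand): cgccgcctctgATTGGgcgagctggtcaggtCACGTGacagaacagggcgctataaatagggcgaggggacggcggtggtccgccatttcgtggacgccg
Srsf4 (chr5:149345438-149345537, plus strand): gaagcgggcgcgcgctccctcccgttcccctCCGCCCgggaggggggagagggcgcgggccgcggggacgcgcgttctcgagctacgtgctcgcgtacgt
Srsf5 (chr6:106336656-106336755, plus strand): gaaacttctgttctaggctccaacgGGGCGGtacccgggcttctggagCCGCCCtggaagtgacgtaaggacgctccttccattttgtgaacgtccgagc
Srsf6 (chr3:172008972-172009071, plus strand): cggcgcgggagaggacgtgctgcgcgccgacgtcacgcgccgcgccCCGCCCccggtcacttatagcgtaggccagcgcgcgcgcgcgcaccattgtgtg
Srsf9 (chr12:46945148-46945247, minus strand): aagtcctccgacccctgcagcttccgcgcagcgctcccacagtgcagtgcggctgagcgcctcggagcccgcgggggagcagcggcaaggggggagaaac
Rps6ka3 (chrX:39431685-39431784, minus strand): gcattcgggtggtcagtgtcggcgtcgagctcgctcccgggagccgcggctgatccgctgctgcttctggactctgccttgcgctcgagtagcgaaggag
Dhx36 (chr2:149044192-149044291, minus strand): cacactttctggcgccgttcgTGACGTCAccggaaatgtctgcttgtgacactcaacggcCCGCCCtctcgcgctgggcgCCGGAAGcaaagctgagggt
Rbm18 (chr3:39884578-39884677, minus strand): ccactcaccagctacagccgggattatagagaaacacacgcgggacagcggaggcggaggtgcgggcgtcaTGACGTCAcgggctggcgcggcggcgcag
Mrps31 (chr16:76324066-76324165, minus strand): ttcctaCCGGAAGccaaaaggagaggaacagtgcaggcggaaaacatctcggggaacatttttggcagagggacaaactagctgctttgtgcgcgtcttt
The SR promoters were GC-rich, from 59% (Srsf5) to 78% (Srsf4) of these bases, and 5 of 6 held a GC box within 250 upstream bases. The CCAAT letters stood in 2 of these 6. The 6 include Srsf3, which was not called, and leave out Srsf10, which was called higher. Over that window the GC box was found in 62.5% of the 56 member promoters and in 30.5% of the 33469 promoters of the table, and the ETS letters in 26.8% against 7.27%. The median GC content was 61% and 51.2%, so these shares were read from windows of unlike base composition. The promoters of the table also include genes with more than 1 entry, which were left out among the members. The CCAAT letters stood in 11 of 21 promoters of members that rose, in 2 of 8 of those that fell and in 9 of 27 of those not called, beside 34% of all promoters. In the same order, the GC box stood in 11 of 21, 5 of 8 and 19 of 27, so its share was lowest among members that rose. The ETS letters stood in 5 of 21, 3 of 8 and 7 of 27. The cyclic AMP response element stood in the promoters of Dhx36 and Rbm18, both lower after SNT, and in no other member promoter of the 56, beside 1.59% of all promoters. A match describes letters only, and binding was not measured.

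The spliceosome genes and the helicases that work with it also rose. Of 10 measured, 6 were called higher, and the log2 fold changes of all 10 were above 0, with a median of 0.36. Over all genes tested, 29.2% were called higher and 9062 of 17930 lay above 0. The related DEAD-box helicases Ddx39b (ENSRNOG00000000841) and DDX39A (ENSRNOG00000004373) both act in spliceosome assembly and mRNA export. Ddx39b had 1925, 1890 and 2032 in naive and 2721, 3266 and 3199 in SNT. DDX39A had 251, 261 and 291 in naive and 364, 495 and 462 in SNT. Neither gene overlapped between groups. Their log2 fold changes were 0.65 ± 0.09 and 0.70 ± 0.14 (SE), with limma adjusted p of 0.00369 and 0.00739.

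Prpf39, a factor of the U1 snRNP, had 1003, 940 and 975 in naive and 1285, 1418 and 1409 in SNT and rose by 0.49, with the SNT libraries closely spaced. Sf3b1, the U2 snRNP subunit that recognizes the branch point, had 5616, 5664 and 5914 in naive and 6780, 7726 and 7064 in SNT, and rose by 0.33. Rbm10, a regulator of alternative exons, rose by 0.39. Snrpa1, Prpf6 and the helicases Ddx42 and Dhx15 did not pass the test, with log2 fold changes of 0.15, 0.12, 0.14 and 0.12. With equal totals all 10 were called higher, beside 36.8% of all genes. That scaling moved the median of all genes from 0.01 to 0.16.

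The hnRNPs package nascent RNA and often oppose SR proteins. Hnrnpa2b1 (ENSRNOG00000011175), which also carries messages along neuronal processes, had 431, 417 and 468 in naive and 552, 840 and 677 in SNT. All SNT values lay above the naive ones, and the log2 fold change was 0.63 ± 0.15 (SE), adjusted p = 0.0149 (limma). Hnrnpm was called at each depth, and its groups overlapped at 50 M but not at 25 M or 17 M, with 550, 528 and 636 in naive and 612, 948 and 765 in SNT. Its call at 50 M (adjusted p = 0.0716 by limma) was lost on leaving out SNT replicate 2 or 3 or naive replicate 1 or 2, with adjusted p up to 0.186, and without SNT replicate 2 the log2 fold change moved from 0.42 to 0.27. Hnrnpr had few reads, with 41.6, 36.2 and 41.2 in naive and 29.4, 29.3 and 35.9 in SNT. It was not called, and its log2 fold change was -0.32 at 50 M and 0.35 at 17 M.

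In 3′ end processing, Cpsf6, a subunit of the cleavage factor that chooses poly(A) sites, had 2906, 2680 and 2920 in naive and 2966, 3149 and 2995 in SNT, and the interval of its log2 fold change was -0.07 to 0.27. Cpsf4, the zinc finger subunit of the cleavage and polyadenylation factor, had the fewest reads of the members, with 11.9, 16.1 and 20.1 in naive and 19.6, 44.5 and 33 in SNT. Its highest naive library met its lowest SNT library. Its log2 fold change was 0.93 ± 0.36 (SE) at 50 M, 0.32 at 25 M and 1.45 at 17 M, and its call at 50 M (adjusted p = 0.0709 by limma) was lost on leaving out 4 of the 6 libraries.

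Decay factors moved in both directions. Of 8, 2 rose, 2 fell and 4 did not pass. The share called was 50% (25% higher and 25% lower). It was 58.5% of all genes (29.2% higher and 29.4% lower) and 71.3% of genes with a symbol. Within the CCR4-NOT complex, the scaffold Cnot1 rose by 0.18 with 2544, 2550 and 2478 in naive and 2855, 2959 and 2792 in SNT, and Cnot2 rose by 0.32 with 555, 585 and 598 in naive and 664, 743 and 768 in SNT. Cnot4 (ENSRNOG00000010795), a ubiquitin ligase of the complex, was lower, with 996, 1053 and 927 in naive and 909, 773 and 792 in SNT. The log2 fold change of Cnot4 was -0.27 ± 0.09 (SE), adjusted p = 0.0473 (limma), and without SNT replicate 2 or 3 or naive replicate 1 or 2 the adjusted p was 0.117 to 0.148. The call of Cnot1 was lost without SNT replicate 2 or any naive library (adjusted p 0.101 to 0.144). Cnot7, the catalytic deadenylase, and Cnot10 had log2 fold changes of 0.10 and 0.07 and were not called. Of the exosome, the core subunit Exosc9 fell by 0.31 on the log2 scale, with 866, 920 and 926 in naive and 683, 753 and 748 in SNT, while the nuclease Exosc10 had 687, 725 and 661 in naive and 717, 829 and 810 in SNT and missed the threshold (adjusted p = 0.118 by limma). The log2 fold change of Exosc9 was -0.17 at 25 M and -0.21 at 17 M, where its groups overlapped and it was not called (adjusted p = 0.203, limma), nor was it called with equal totals at 50 M (-0.15). Ddx6, a helicase of decapping complexes, was counted at 32.7, 25.1 and 24 in naive and 23.5, 33.7 and 23.6 in SNT.

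Among other RNA-binding proteins, 6 of 11 rose and 2 fell. The share called, 72.7%, was near the 71.3% of genes with a symbol, and that of all genes was 58.5%. Called higher were 54.5% of the group, beside 35.2% of genes with a symbol and 29.2% of all genes. Rbm3 (ENSRNOG00000005387), a cold-inducible protein known to favour translation, had 943, 850 and 1151 in naive and 1440, 2268 and 1656 in SNT. SNT replicate 2 was far above the others, and no SNT value fell within the naive range. The log2 fold change was 0.85 ± 0.19 (SE), adjusted p = 0.0106 (limma). Rbms2 (ENSRNOG00000003076) had 425, 366 and 501 in naive and 564, 821 and 738 in SNT, a rise of 0.71 ± 0.17 (SE). Its groups did not overlap, with SNT replicate 1 nearest to naive. Elavl1 (ENSRNOG00000001069), the ubiquitous HuR protein that stabilizes AU-rich messages, had 681, 610 and 717 in naive and 875, 1239 and 1163 in SNT. It rose by 0.69 ± 0.14 (SE, adjusted p = 0.00871 by limma) with no overlap.

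Celf1, a regulator of splicing and decay, rose by 0.44 with 1890, 1753 and 1884 in naive and 2369, 2666 and 2479 in SNT. Rbm26 rose by 0.34. The SNT libraries of both genes were close to one another. Rbm18 (ENSRNOG00000006763) fell, with 1989, 1901 and 2022 in naive and 1610, 1295 and 1538 in SNT, and its log2 fold change was -0.42 ± 0.10 (SE), adjusted p = 0.0122 (limma). Larp4b, a poly(A)-linked translation factor, had 3309, 3179 and 3193 in naive and 3023, 2654 and 2778 in SNT. It was called at 50 M only (adjusted p = 0.0657 by limma), and its call was lost on leaving out any library but SNT replicate 1 (adjusted p 0.131 to 0.202), with edgeR (0.107) and with equal totals (0.696). Elavl3, the neuronal relative of Elavl1, had 1284, 1367 and 1109 in naive and 1284, 726 and 1004 in SNT. SNT replicate 1 stood at the level of the naive libraries and the other SNT libraries below them. It was called at 25 M and at neither other depth (50 M adjusted p = 0.193 by limma), and without SNT replicate 1 the log2 fold change moved from -0.35 to -0.55, with an adjusted p of 0.0163.

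Dhx36 (ENSRNOG00000014599), a helicase that unwinds G-quadruplexes, had 2871, 2784 and 2869 in naive and 2353, 1948 and 2042 in SNT. The naive libraries were close together and all SNT libraries lay below them. Its log2 fold change was -0.43 ± 0.09 (SE), adjusted p = 0.00818 (limma). The helicase Ddx50 and Polr1a, the large subunit of RNA polymerase I, were not called, with log2 fold changes of 0.09 and 0.15.

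**Figure D2:**
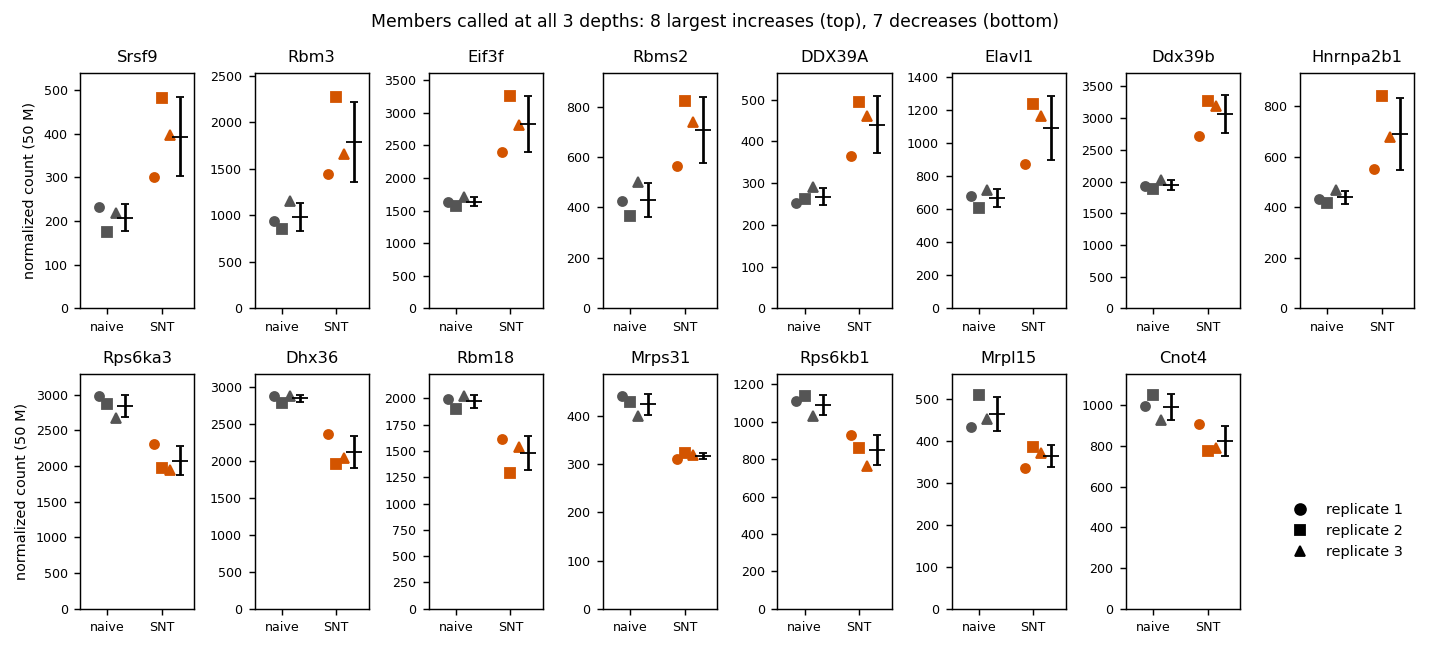
Normalized counts at 50 M (y axis, from 0) in each naive and SNT library of the members called at all 3 depths with the 8 largest increases (top row) and the 7 decreases (bottom row); symbols mark the replicates, and the bar is the mean ± SD of 3 libraries. In every panel the groups do not overlap, and SNT replicate 1 (circle) is the lowest SNT point in the top row.

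Of 3 cytosolic ribosomal protein genes, 2 rose and 1 was not called. Over all genes 29.2% were called higher, and 35.2% among genes with a symbol. Rpl3, a protein of the large cytosolic subunit, had 3016, 3037 and 3224 in naive and 3339, 5448 and 4127 in SNT. SNT replicate 2 was far above the other libraries, and the call (log2 fold change 0.45, adjusted p = 0.0646 by limma) was lost on leaving out SNT replicate 3 or any naive library, with adjusted p up to 0.156. Without SNT replicate 2 the log2 fold change moved to 0.26 (adjusted p = 0.0996, limma). Rps24 had 70.3, 56.3 and 76.7 in naive and 94.2, 163 and 100 in SNT and was called at 50 M only, where the call was lost without naive replicate 2 (adjusted p = 0.12, limma). Rpl22 had 33.6, 25.1 and 53.7 in naive and 51, 84.7 and 50 in SNT and was called at 17 M and 25 M but not at 50 M. These genes have many processed copies in mammalian genomes, and reads that map to several places were discarded, so their counts may hold a part of their reads only.

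Of 4 mitochondrial ribosomal protein genes, 2 fell and 2 were not called. Over all genes 29.4% were called lower, and 36.1% among genes with a symbol. Mrps31 (ENSRNOG00000011839) had 442, 429 and 401 in naive and 310, 323 and 320 in SNT. The SNT libraries differed from one another by a few counts and lay far below the naive ones, and the log2 fold change was -0.42 ± 0.08 (SE), adjusted p = 0.00793 (limma). Mrpl15 (ENSRNOG00000008566) had 432, 510 and 452 in naive and 337, 387 and 371 in SNT, a change of -0.35 ± 0.10 (SE) that was not called with equal totals (adjusted p = 0.188 by limma). Mrpl3 had 716, 752 and 725 in naive and 627, 703 and 577 in SNT, without overlap, and was called at 17 M but not at 50 M (adjusted p = 0.102, limma). Mrps6 had 383, 324 and 396 in naive and 321, 421 and 328 in SNT, and the sign of its log2 fold change turned with the scaling.

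Most initiation factors showed no detectable change. Of 10, Eif3f and Eif4b rose and 8 were not called. The share called was 20%, beside 58.5% of all genes and 71.3% of genes with a symbol. Eif3f (ENSRNOG00000015221), a subunit of the eIF3 scaffold, had 1629, 1572 and 1710 in naive and 2402, 3256 and 2819 in SNT. The SNT libraries lay well above the naive ones in every replicate, and the log2 fold change was 0.78 ± 0.12 (SE), adjusted p = 0.00412 (limma). Eif4b, the cofactor of the eIF4A helicase, had 2861, 2690 and 2559 in naive and 3429, 3994 and 3717 in SNT. It rose by 0.46 ± 0.09 (SE, adjusted p = 0.00676 by limma). Eif4e, the cap-binding protein, had nearly equal counts of 418, 414 and 405 in naive and 425, 425 and 403 in SNT, and the interval of its log2 fold change was -0.16 to 0.20. The eIF2 subunits Eif2s1 and Eif2s3, which bring the initiator tRNA, had intervals of -0.41 to 0.09 and -0.24 to 0.09. Eif4g3, an eIF4G scaffold, was called lower at 17 M only, and had 4322, 4496 and 4005 in naive and 4024, 3966 and 3756 in SNT at 50 M. The remaining 4, Eif2a, Eif2d, Eif3j and Eif5, had log2 fold changes from -0.10 to 0.08. With equal totals Eif4e and Eif2d were also called higher, and the signs of Eif2s1, Eif2s3, Eif3j and Eif4g3 turned.

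Of the 6 kinases, 1 rose, 2 fell and 3 were not called. The share called was 50%, below the 58.5% of all genes and the 71.3% of genes with a symbol. The share called lower, 33.3%, lay between the 29.4% of all genes and the 36.1% of genes with a symbol. Eif2ak3, the PERK kinase that phosphorylates eIF2α on endoplasmic reticulum stress, had 1096, 1148 and 1175 in naive and 1516, 1467 and 1551 in SNT. The SNT libraries stood clear of the naive ones and were close together, and the log2 fold change was 0.41 ± 0.07 (SE), adjusted p = 0.00478 (limma). Eif2ak4, the GCN2 kinase that senses amino acid shortage, had 634, 675 and 622 in naive and 694, 612 and 622 in SNT, with an interval of -0.20 to 0.19.

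The kinases that fell act downstream of growth factors. Rps6ka3 (ENSRNOG00000006632), the RSK2 kinase of the ERK pathway, had 2976, 2876 and 2669 in naive and 2314, 1972 and 1946 in SNT. Its log2 fold change was -0.45 ± 0.09 (SE), adjusted p = 0.00842 (limma). Rps6kb1 (ENSRNOG00000003919), the S6 kinase of the mTOR pathway, had 1109, 1136 and 1032 in naive and 927, 858 and 765 in SNT. Its log2 fold change was -0.37 ± 0.09 (SE), adjusted p = 0.0169 (limma). Neither gene overlapped between groups at 50 M. Rps6kc1 was called lower at 25 M only, and Eef2k, the elongation factor kinase, had an interval of -0.14 to 0.32.

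Related members were set against each other within each library, since such a ratio does not depend on the library's scaling. Over 8 pairs an exact two-sided permutation test of 3 against 3 libraries cannot go below p = 0.1, which is 0.16 after Benjamini-Hochberg adjustment, so the size and interval of a difference are given, for 7 of the pairs. The ratios also hold the lengths of the genes and are compared between libraries only. The pairs were chosen with earlier results of these data known. Their ratios come from the same libraries as the calls of their members, so they are no separate support for those calls.

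The log2 ratio of Elavl3 to Elavl1 was 0.91, 1.16 and 0.63 in naive and 0.55, -0.77 and -0.21 in SNT. The groups did not overlap, SNT replicate 1 was nearest to naive, and the difference was -1.05 (95% interval -2.19 to 0.10). For the eIF2α kinases Eif2ak4 and Eif2ak3 the difference was -0.41 (95% interval -0.62 to -0.21), with no overlap. Rbms2 over Rbms1 differed by 0.67 (95% interval 0.09 to 1.25) and Exosc10 over Exosc9 by 0.49 (95% interval 0.35 to 0.64), again without overlap.

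The other 3 pairs overlapped. The helicases DDX39A and Ddx39b rose side by side, and the difference of their log2 ratio was 0.06 (95% interval -0.12 to 0.24), exact permutation p = 0.4. Cpsf6 over Cpsf4 and Rpl22 over Rpl3, each with a gene of few reads, differed by -0.83 (95% interval -1.87 to 0.22) and 0.29 (95% interval -0.56 to 1.13). Rpl22 over Rpl3 was 0.40 at 25 M and 0.56 at 17 M, and at 50 M it was 0.05 without naive replicate 2 and 0.54 without naive replicate 3.

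**Figure D3:**
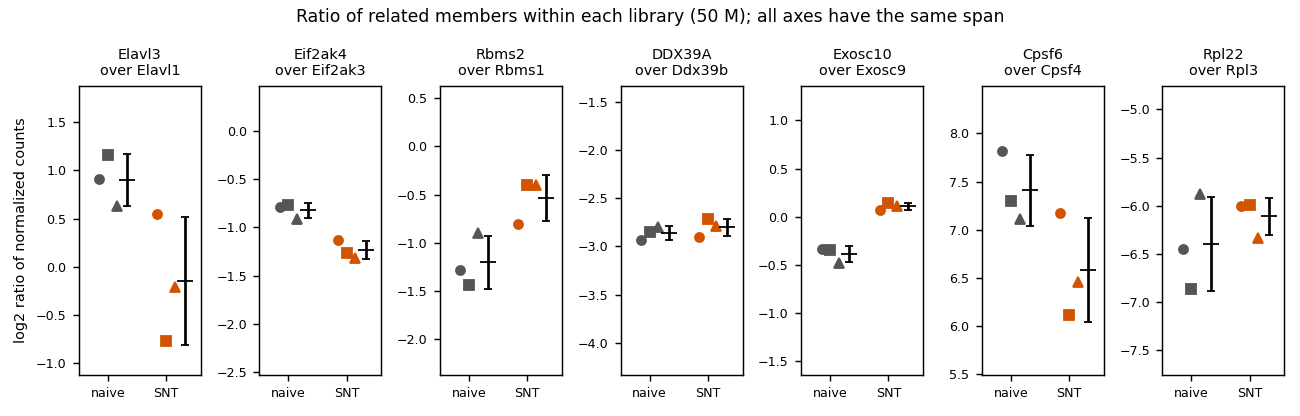
Log2 ratio of the normalized counts of 7 pairs of related members (y axis, the same span in each panel) in each library at 50 M, with the mean ± SD of 3 libraries as a bar. The groups separate for 4 of these pairs, and overlap for DDX39A over Ddx39b.

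The 3 sequencing depths gave the same direction for every member called at 50 M. At 25 M, 35 members were called (25 higher and 10 lower) beside 55.9% of all genes (27.7% higher and 28.3% lower). At 17 M, 36 members were called (27 higher and 9 lower) beside 52.3% of all genes (26% higher and 26.4% lower). Calls at all 3 depths were made for 30 members, 23 higher and 7 lower, and for 42.8% of all genes. Cnot2, Larp4b, Rps24 and Srsf10 were called at 50 M alone, and Eif4g3, Elavl3, Exosc10, Mrpl3, Prpf6, Rpl22 and Rps6kc1 at a lower depth but not at 50 M. The other 23 were called at no depth.

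The fold changes that moved most between depths were those of members with few reads. Cpsf4, Rps24 and Hnrnpr differed by more than 0.3 on the log2 scale between 50 M and a lower depth. Rps24, for example, was at 0.77 at 50 M, 0.24 at 25 M and 0.17 at 17 M. Among called members, those with a smaller change at both lower depths included Cnot2 (0.20 at each) and Hnrnpa2b1. Hnrnpa2b1 was at 0.63 at 50 M, 0.48 at 25 M and 0.49 at 17 M. Srsf4 and Srsf10 had a smaller change at 17 M (0.35 and 0.15) and Mrps31 had a larger one there (-0.69). Only 5 members had a mean normalized count under 100 at 50 M. The median member had 908, beside a median of 240 over all genes tested and 1236 among genes with a symbol.

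**Figure D4:**
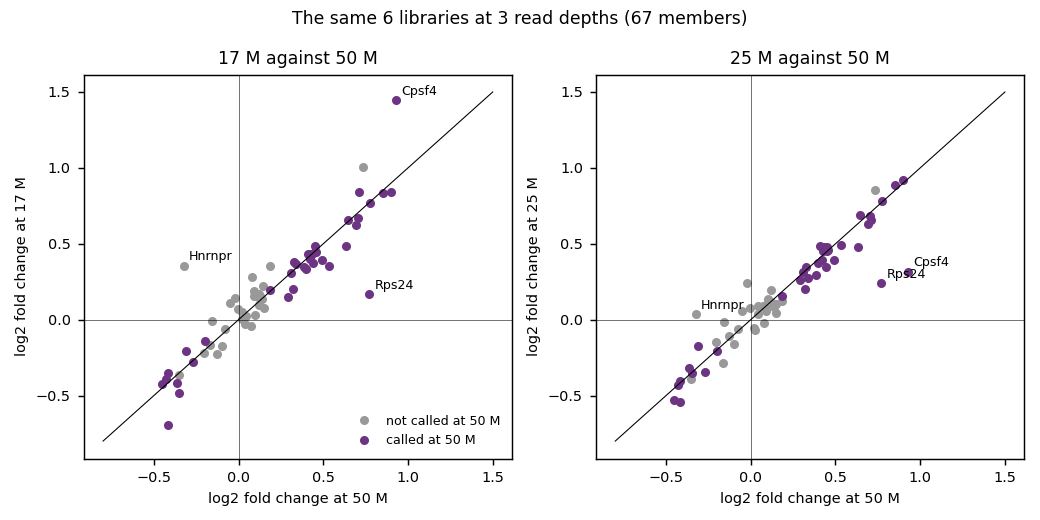
Log2 fold change of SNT over naive of each of the 67 members at 17 M (left) and 25 M (right) on the y axis against 50 M on the x axis; the line marks equal values, purple points were called at 50 M. Named genes moved by more than 0.3, and of these Hnrnpr, not called at any depth, changed sign.

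The SNT libraries differed among themselves in the same order for most members that were called higher. SNT replicate 1 was the SNT library nearest to the naive mean for 31 of the 37 called members (83.8%, against 81.4% of all called genes), and replicate 2 was the farthest for 28 (75.7% against 65.8%). Of the 28 increases, replicate 1 was nearest for 25 and replicate 2 farthest for 24. Of the 9 decreases, replicate 1 was nearest for 6 and farthest for 3, and replicate 2 was farthest for 4. Leaving out each of the 6 libraries in turn, 28 of the 37 members stayed called in every fit, 21 higher and 7 lower (75.7%, against 73.1% of all called genes). Summed over the 67 genes, the members took 0.461% to 0.485% of the reads on genes in the naive libraries and 0.559%, 0.641% and 0.599% in SNT replicates 1 to 3. As size-factor normalized counts, which the tests used, their sums were 87986, 86028 and 88552 in naive and 94453, 104466 and 98886 in SNT, a smaller relative rise.

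Summed markers of sensory neurons, fibroblasts and myeloid cells also lay nearest to naive in SNT replicate 1 and farthest in replicate 2. Of 17 sensory neuron markers matched (of 20 listed), 14 were lower, 1 was higher and 2 were not called, and their summed count was 467384 to 539563 in naive and 335435, 183547 and 227069 in SNT replicates 1 to 3. All 8 fibroblast and connective tissue markers were higher, with sums of 51330 to 81772 in naive and 120430, 187739 and 183004 in SNT replicates 1 to 3. Of 9 matched myeloid markers 6 were higher and 1 lower, with sums of 16655 to 17054 in naive and 24056, 34717 and 28538 in SNT replicates 1 to 3, and of 8 Schwann and satellite glial markers 3 were higher and 5 not called, with sums of 296539 to 544302 in naive and 378544, 361075 and 452958 in SNT replicates 1 to 3. No matched marker was at 0 in all libraries, and the listed markers of T cells, muscle and red blood cells had no symbol here. Their part in the members' changes was not tested. In tissue samples of this kind, a change in the number of cells of a type and a change in RNA per cell cannot be told apart.

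**Figure D5:**
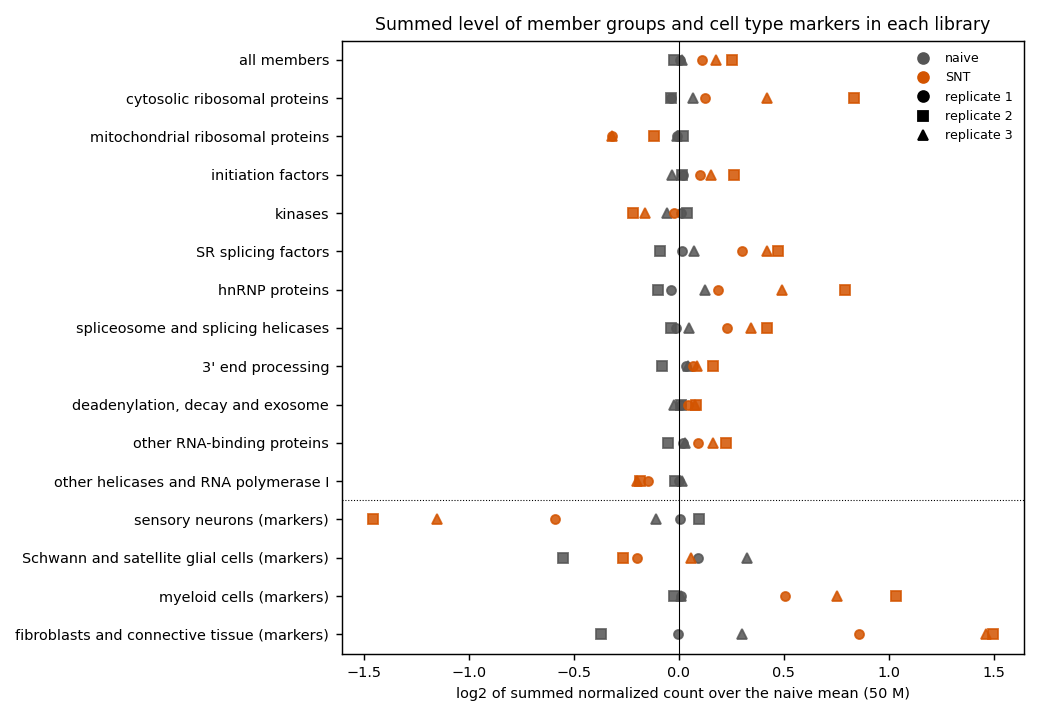
Log2 of the summed normalized count over the naive mean at 50 M (x axis) for each member group and, below the dotted line, each list of cell type markers; symbols mark the replicates, grey naive and orange SNT. SNT replicates 1, 3 and 2 lie at increasing distance from naive for the SR factors, the spliceosome genes and the sensory neuron markers.

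Genes of the same pathways whose names fall outside the chosen stems were compared as well, 58 in all, of which 39 were called (25 higher and 14 lower). That is 67.2% called, 43.1% higher and 24.1% lower, beside 58.5% of all genes and 71.3% of the genes with a symbol, from which these were drawn (35.2% higher and 36.1% lower). Among 28 splicing genes 16 rose, 6 fell and 6 were not called (78.6% called), with a median log2 fold change of 0.30. Tia1, which binds U-rich RNA at splice sites and in stress granules, had 206, 194 and 222 in naive and 390, 508 and 455 in SNT, a log2 fold change of 1.11 ± 0.12 (SE), adjusted p = 0.00236 (limma). Nono, a paraspeckle protein, had 679, 640 and 705 in naive and 1082, 1529 and 1309 in SNT. Mbnl2, a regulator of alternative splicing, fell, with 3344, 3823 and 3155 in naive and 2420, 1992 and 1928 in SNT. The log2 fold changes of Nono and Mbnl2 were 0.94 and -0.71.

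Among 16 further translation genes 2 rose and 8 fell, with a median of -0.16. The share called was 62.5%, beside 58.5% of all genes and 71.3% of genes with a symbol. Pabpc1, the cytoplasmic poly(A)-binding protein, had the largest rise, with 2305, 2099 and 2493 in naive and 4585, 7247 and 6003 in SNT and a log2 fold change of 1.35. Mcts1, a ribosome recycling factor, had 916, 841 and 889 in naive and 623, 539 and 535 in SNT. Fxr2, a relative of the fragile X protein, had 3970, 4174 and 3762 in naive and 2990, 2399 and 2498 in SNT. Both lay lower in every SNT library than in any naive one, with log2 fold changes of -0.64 and -0.60.

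Among 14 genes of 3′ ends and decay 7 rose and 7 were not called. The share called, 50%, was below the 58.5% of all genes and the 71.3% of genes with a symbol. The helicase Mov10 had 173, 177 and 202 in naive and 312, 459 and 442 in SNT, a log2 fold change of 1.11. The nuclear exonuclease Xrn2 rose by 0.72 and the poly(A) polymerase Papd4 by 0.63.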

How the data were processed

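The deposited tables gave, for each of 26172 Ensembl rat genes, normalized read counts (unit: signal) of 6 libraries at each of 3 depths. Per the study's methods, the authors aligned reads to the Rn5 genome with Bowtie, discarded reads with several matches, counted exonic reads without regard to strand, leaving out exons shared by genes, and divided counts by DESeq size factors (0.882 to 1.13). Reads of antisense partners cannot therefore be separated.

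Here, genes with reads in at least 3 of 6 libraries were tested with limma 3.58.1 (R 4.3.3) on log2 of the deposited normalized count + 1, with a trended variance, 3 SNT against 3 naive libraries at each depth and no covariate. Fold changes understate the change of low genes on this scale. A gene was called at a Benjamini-Hochberg adjusted p below 0.1. Whole reads were recovered from the deposited values, all of which were whole multiples of 1 read within 7.57e-10 reads, and tested with edgeR 4.0.16 and DESeq2 1.42.0 as alternatives. The procedure was also run on simulated data, but no result of that run is given here. It is therefore not used as evidence of power or error rate for changes as small as those of the members, or of the scaling. Related members were compared by exact permutation tests (scipy 1.17.1). The replicates are pools of animals, and p-values measure the spread between these pools. Replicate numbers did not pair the libraries (correlation of deviations 0.04, -0.30 and 0.15).

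The members, gene lists, groups and pairs were chosen with earlier results of these data known. Full values were given for up to 8 largest increases and 8 largest decreases at 50 M among members called at all 3 depths (only 7 decreases were) and for pair members. For each further list, up to 3 genes with the largest change were named. Other members were described with their group, and 2 members, with 1 pair that holds one of them, enter the counts but are not reported here. Other settings were pseudocounts of 0.5 and 5, no filter, a mean of at least 10, no variance trend, equal totals, TMM factors, a threshold of 0.05, a replicate block, each library left out, and the 3 runs of a library summed. The intervals and p-values cover the spread between libraries only. Promoter sequences came from RefSeq (GRCr8), and the files' own build was not used for coordinates.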

Additional observations from a re-analysis of the deposited data

How the results depend on the processing

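The number of members called at 50 M was 37 with limma, 39 with edgeR, 37 with DESeq2, 32 at a threshold of 0.05 and 41 with the runs summed. Leaving out 1 library gave 28 to 45 called members at 50 M (21 to 34 higher and 7 to 11 lower), 26 to 42 at 25 M, 26 to 41 at 17 M and 28 to 44 of the 58 related genes. Equal totals gave 44 higher and 5 lower, where size factors gave 28 and 9, since that scaling moved the median of all genes by about 0.15. Signs turned for members that were not called: Eif2ak4 (0.011 with TMM factors, 0.013 with edgeR, 0.16 with equal totals, 0.026 with runs summed and -0.061 to 0.03 without 1 library), Mrps6 (0.11 with equal totals, 0.0039 with runs summed, -0.17 to 0.021 without 1 library), Rbms1 (-0.0075 to 0.076 without 1 library), Eif4e (-0.019 with runs summed), Eif2a (-0.004 with runs summed, down to -0.0071 without 1 library), Cnot10 (-0.0041 without naive replicate 3), Ddx6 (0.13 with equal totals, 0.086 with runs summed, -0.19 to 0.11 without 1 library) and, with equal totals, Eif4g3 (0.037), Eif2s1 (0.0035), Eif2s3 (0.084) and Eif3j (0.064). Ratios moved with depth for Rpl22 over Rpl3 (0.40 at 25 M, 0.56 at 17 M), DDX39A over Ddx39b (-0.007 at 25 M), Exosc10 over Exosc9 (0.30 at 25 M, 0.56 at 17 M) and Cpsf6 over Cpsf4 (-0.18 at 25 M, -1.29 at 17 M), and the cause was not tested.

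The replicate numbers were shared by label only. With a replicate block 35 members were called at 50 M (27 higher, 8 lower), 29 at 25 M and 30 at 17 M, and 33 related genes, and Cnot1 and Larp4b lost their calls. Pooled tissue and 3 libraries a group limit what can be seen. The smallest called change at 50 M was 0.18 on the log2 scale, and low counts (Cpsf4, Hnrnpr, Ddx6, Rpl22) gave wide intervals.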
